A study of Mus musculus with 25 samples.

Results

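The 33 genes described here carry out or control the conversion of sugar to fatty acids in the liver. They were taken as a list of mouse gene symbols, mapped to 33 of the 41388 gene identifiers in the count tables. They were arranged by step into 4 genes of fructose and glucose entry, 9 of glycolysis, 2 that turn pyruvate into acetyl-CoA, 6 of the pentose phosphate pathway, 10 of fatty acid synthesis and 2 regulators. All 33 passed the filter on low counts that left 14065 genes for testing.

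The study asked how hepatocyte overexpression of NAMPT, the enzyme that salvages nicotinamide for NAD synthesis, acts on the liver, and whether the NAD-dependent deacetylase SIRT1 is needed for it. Polyadenylated liver RNA was sequenced from 25 male mice on the C57B/6J background, labelled as 20 weeks old in a study of 12 weeks, with 1 library per mouse. Wild type (WT) mice were Sirt1 fl/fl littermates without Cre, and LKO mice carried the same floxed alleles with Albumin-Cre, which acts in hepatocytes. All mice received an AAV8 vector, either empty (EV) or, by the sample titles, encoding NAMPT (the treatment text names SIRT1) under the TBG promoter, which is active in hepatocytes. The groups were chow WT EV (n = 3), Western diet (WD) WT EV (n = 6), WD WT NAMPT (n = 6), WD LKO EV (n = 5) and WD LKO NAMPT (n = 5). There was no chow group with NAMPT or with the LKO label, so the vector and the genotype label can be compared on WD alone.

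In hepatocytes, fructose and glucose are phosphorylated on entry, fructose by ketohexokinase, and both sugars pass as triose phosphates through the lower part of glycolysis to pyruvate. Mitochondrial acetyl-CoA leaves as citrate, is released again in the cytosol and is built into palmitate by acetyl-CoA carboxylase and fatty acid synthase, with NADPH from malic enzyme and the pentose phosphate pathway. Transcription of many of these genes is driven by SREBP1c (from Srebf1), which responds to insulin, and by ChREBP (from Mlxipl), which responds to sugar.

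The libraries held between 20166175 and 32937326 gene counts. Levels are given as CPM, the gene count scaled to a common library size with trimmed mean of M values (TMM) factors, and differences as log2 fold changes with the standard error (SE) of the limma fit and a p-value adjusted over all 14065 genes. The genes called are those with an adjusted p of 0.05 or less. Of 8 hepatocyte markers, 7 were matched, and their summed level was between 47380 and 83019 CPM in the 25 libraries. Sirt1, the gene targeted in LKO mice, averaged 8.86 ± 0.57 CPM (SD, n = 6) with EV and 8.58 ± 0.62 (SD, n = 6) with NAMPT in WD WT livers. In the libraries labelled LKO it averaged 8.57 ± 1.34 CPM (SD, n = 5) with EV and 9.82 ± 1.36 (SD, n = 5) with NAMPT. The difference between LKO and WT was not called with either vector (log2 -0.07 ± 0.10 with EV and 0.19 ± 0.11 with NAMPT, adjusted p = 0.99 and 0.24), counts per gene do not read the excised exons separately, and each direction below for those libraries rests on their label. Nampt in WT livers on WD averaged 47.4 ± 6.46 CPM with EV (SD, n = 6) and 59.5 ± 10.6 with NAMPT (SD, n = 6), a log2 difference of 0.34 that was not called (adjusted p = 0.14). In the libraries labelled LKO it averaged 56.1 ± 12.0 CPM with EV (SD, n = 5) and 79.95 ± 28.4 with NAMPT (SD, n = 5), a log2 difference of 0.41 that was not called either (adjusted p = 0.4). The WD WT NAMPT libraries 1 and 2 stood apart, since they were the lowest pair of the 6 in 24 of the 33 genes, and the counts of the 33 genes in each comparison that uses them are given with and without them.

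Promoter sequence is shown for the 4 genes called in the WT NAMPT comparison and for Fasn, the synthase at the end of the route. Each is the stretch of up to 250 bases before the start of transcription in RefSeq (GRCm38.p6), written 5′ to 3′ on the strand of the gene. Capitals mark matches, on either strand, to CACGTG (the core of the element bound by ChREBP and other E-box factors), TCACNCCAC (a sterol regulatory element), CCAAT (the NF-Y box) or GGGCGG (the Sp1 box). The stretches lie at chr5:30921309-30921555 on the plus strand for Khk, chrX:106186850-106187099 on the plus strand for Pgk1, chr9:86695954-86696164 on the minus strand for Me1, chr11:120824548-120824797 on the minus strand for Fasn and chr5:135106641-135106890 on the plus strand for Mlxipl.
Khk: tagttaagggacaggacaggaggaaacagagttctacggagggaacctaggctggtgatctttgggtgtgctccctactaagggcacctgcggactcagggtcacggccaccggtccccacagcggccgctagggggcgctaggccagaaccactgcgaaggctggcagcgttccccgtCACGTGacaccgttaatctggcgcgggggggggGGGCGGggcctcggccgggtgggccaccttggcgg
Pgk1: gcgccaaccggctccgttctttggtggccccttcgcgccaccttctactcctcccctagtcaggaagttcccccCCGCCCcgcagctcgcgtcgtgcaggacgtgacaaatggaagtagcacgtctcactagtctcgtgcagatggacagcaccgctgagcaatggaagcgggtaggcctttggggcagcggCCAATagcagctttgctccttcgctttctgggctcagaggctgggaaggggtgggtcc
Me1: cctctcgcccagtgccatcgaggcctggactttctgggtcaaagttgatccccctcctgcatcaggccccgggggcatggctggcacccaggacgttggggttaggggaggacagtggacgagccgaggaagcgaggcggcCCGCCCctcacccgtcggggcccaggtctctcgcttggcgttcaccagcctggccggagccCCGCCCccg
Fasn: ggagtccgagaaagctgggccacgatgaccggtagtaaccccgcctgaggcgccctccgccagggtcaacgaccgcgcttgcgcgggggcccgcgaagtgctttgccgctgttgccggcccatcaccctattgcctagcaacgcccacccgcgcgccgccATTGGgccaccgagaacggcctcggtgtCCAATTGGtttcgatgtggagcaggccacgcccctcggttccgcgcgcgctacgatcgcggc
Mlxipl: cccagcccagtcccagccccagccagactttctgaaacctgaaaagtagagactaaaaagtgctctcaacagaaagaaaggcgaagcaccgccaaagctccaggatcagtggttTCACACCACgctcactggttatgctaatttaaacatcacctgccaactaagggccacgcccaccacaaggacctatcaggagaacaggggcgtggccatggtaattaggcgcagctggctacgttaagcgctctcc

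The Khk stretch held CACGTG with its first base 68 bases before the start, and GGGCGG 35 bases before it. The Pgk1 stretch held CCAAT 58 and GGGCGG 176 bases before the start. The Me1 stretch held GGGCGG 70 and 9 bases before the start, both on the opposite strand. Fasn held CCAAT at 90, 62 and 59 bases before the start, of which the last pair overlap each other on opposite strands. Mlxipl held TCACNCCAC 136 bases before the start. Me1 and Mlxipl each have a further RefSeq start that is not shown, and the RefSeq start of Fasn lies upstream of the gene model used for counting.

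Across 32851 such windows in the annotation, CACGTG was present in 6.02%, TCACNCCAC in 1.05%, CCAAT in 33.9% and GGGCGG in 32.7%. Among the 33 genes described here, CACGTG was found in 2 (Khk and Slc25a1), TCACNCCAC in 1 (Mlxipl), CCAAT in 13 and GGGCGG in 17. A pair of CACGTG 5 bases apart was found in 0 of the windows. These are matches of letters only, and factor binding was not measured.

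Levels per length of transcript (RPKM, reads scaled by transcript length and library size) set the genes in order. In WD WT EV livers the glycolytic enzyme Gapdh stood first at 619 ± 112 RPKM (SD, n = 6), followed by the lipogenic protein Thrsp at 510 ± 318. The libraries of those genes overlapped. Next came Khk at 289 ± 31.1, Tkfc at 275 ± 43.3 and Fasn at 262 ± 102, which also overlapped one another. Srebf1 followed at 152 ± 45.4 RPKM, and its range of 104.8 to 225 met that of Fasn and of Tpi1 below it. The lowest levels were those of the pentose phosphate enzymes G6pdx at 2.38 ± 0.52 and Rpia at 0.872 ± 0.233 RPKM, whose libraries did not overlap. In chow livers Gapdh was again first at 399 ± 67.2 RPKM (SD, n = 3), Thrsp stood at 162 ± 98.0, Tpi1 at 152 ± 5.51, Khk at 144 ± 15.1 and Fasn at 93.3 ± 38.2. The spread between libraries differed widely among the genes, since within WD WT EV the SD of the CPM values was 64.1% of their mean for Thrsp and 5.16% for Pdhb.

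Western diet against chow, both WT with EV, gave the largest set of differences. In WD livers 18 of the 33 genes (54.5%) were called, against a background of 22% of all genes tested. Of these, 16 were higher (background 10.1%) and 2 were lower (background 12%). The median log2 fold change of the 33 genes was 0.43, and that of all genes was -0.0047. In 11 genes every WD library lay above every chow library, in 2 every one lay below, and the background for such separation in either direction was 16.1%.

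**Figure D1:**
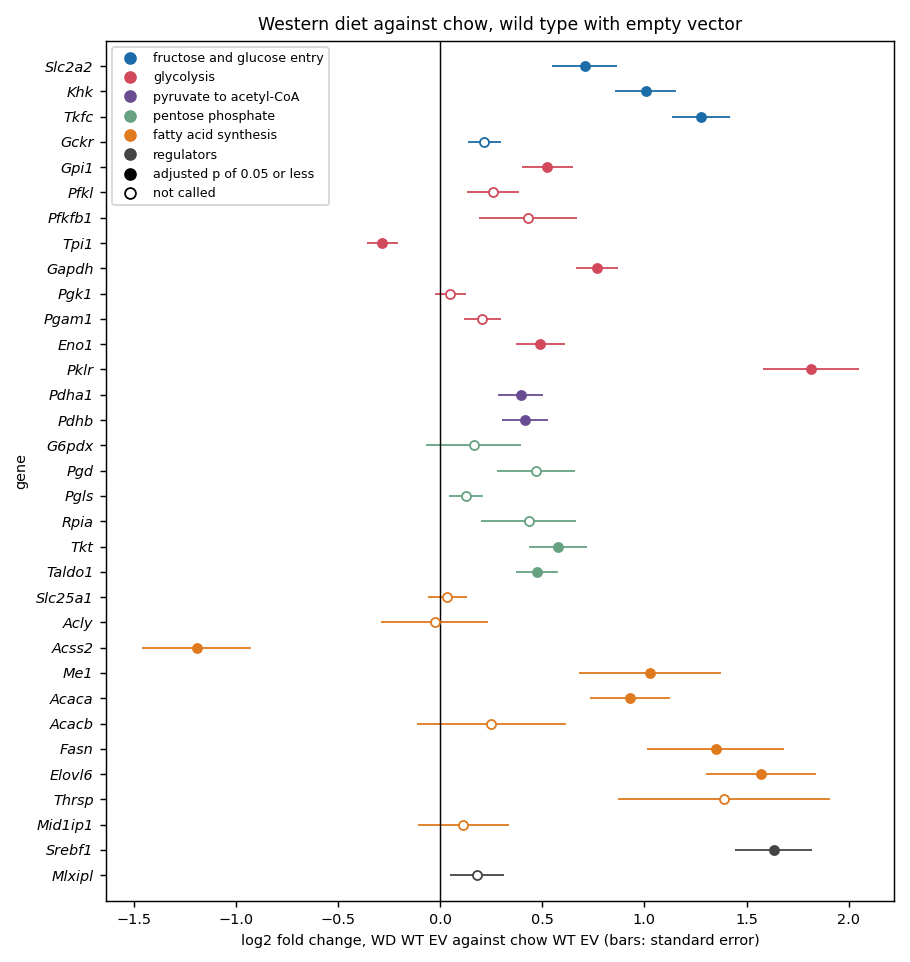
Log2 fold change of each of the 33 genes in WD WT EV (n = 6) against chow WT EV (n = 3), with bars for the SE. Filled points have an adjusted p of 0.05 or less. The 18 filled points include 16 to the right of 0, with Pklr farthest at 1.81, and 2 to the left, Acss2 at -1.19 and Tpi1 at -0.28.

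Of the 4 genes of fructose and glucose entry, 3 were higher on WD. Khk encodes ketohexokinase, which phosphorylates fructose, and lies at chr5:30921556-30931246 (ENSMUSG00000029162). It read 266, 239 and 222 CPM in the chow libraries and from 419 to 580 CPM, with a median of 490, in WD WT EV. The groups did not overlap, and the log2 fold change was 1.01 ± 0.15 (2.01-fold, adjusted p = 4.7e-05). Tkfc encodes the triokinase that acts after it in fructose breakdown. It read 287, 262 and 203 CPM on chow and from 533 to 793, with a median of 627, on WD, again with no overlap (log2 1.28 ± 0.14, adjusted p = 9.9e-07). Slc2a2, the gene for the hepatocyte glucose transporter GLUT2, read 213, 222 and 121 CPM on chow and from 269.6 to 416, with a median of 327, on WD. The groups were separate, with a log2 fold change of 0.71 ± 0.16 (adjusted p = 0.0026). Gckr, whose protein regulates glucose phosphorylation in hepatocytes, overlapped between the diets at 85.1 to 97.7 CPM on chow and 94.4 to 114 on WD, and was not called (log2 0.22 ± 0.08, adjusted p = 0.057).

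In glycolysis 5 of 9 genes were called, 4 higher and 1 lower. Pklr, the gene for liver pyruvate kinase, at chr3:89136142-89146784, had the largest fold of the 33 genes. It read 124, 96.2 and 60.7 CPM on chow and from 247 to 419, with a median of 363, on WD. No WD library came near the chow range, and the log2 fold change was 1.81 ± 0.23 (3.52-fold, adjusted p = 7e-06). Gapdh read 1027, 859.6 and 1221 CPM on chow and from 1427 to 2151, with a median of 1580, on WD. It was separate between the diets at a log2 fold change of 0.77 ± 0.10 (adjusted p = 1.2e-05). Eno1, the gene for an enolase, read 301, 273 and 327 CPM on chow and 331 to 533, with a median of 395, on WD. Its groups did not overlap, although the highest chow and lowest WD libraries were close (log2 0.49 ± 0.12, adjusted p = 0.0047). The glucose phosphate isomerase gene Gpi1 read 88.8, 91.03 and 112 CPM on chow and 107 to 191, with a median of 129, on WD. The groups overlapped, and it was called at 0.52 ± 0.13 (adjusted p = 0.0044).

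The triose phosphate isomerase gene Tpi1 went the other way. It read 322, 339.8 and 356 CPM on chow and 249 to 304, with a median of 277, on WD. All 6 WD libraries were below the chow libraries, and the difference was small (log2 -0.28 ± 0.08, adjusted p = 0.0091). The other 4 genes of the step, Pfkl, Pfkfb1, Pgk1 and Pgam1, overlapped between the diets and were not called. Their estimates ran from 0.05 for the phosphoglycerate kinase gene Pgk1 to 0.43 ± 0.24 for Pfkfb1. Pfkfb1 encodes a liver enzyme that sets the level of an activator of glycolysis.

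Both genes of the pyruvate dehydrogenase E1 subunits were called higher. Pdhb read 98.7, 94.6 and 82.3 CPM on chow and 118 to 134, with a median of 128, on WD. The diets were separate for Pdhb, at a log2 fold change of 0.41 ± 0.11 (adjusted p = 0.01). Pdha1 read 73.5, 77.1 and 83.6 CPM on chow and 79.3 to 116, with a median of 104, on WD, with a single WD library, number 8, inside the chow range (log2 0.39 ± 0.11, adjusted p = 0.013).

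In the pentose phosphate pathway, which supplies NADPH and ribose, 2 of 6 genes were called, both higher and both of its nonoxidative branch. Taldo1, the transaldolase gene, read 90.7, 88.4 and 91.3 CPM on chow and 101 to 147, with a median of 131, on WD, with no overlap (log2 0.47 ± 0.10, adjusted p = 0.0018). Tkt, the transketolase gene, read 132, 137 and 149 CPM on chow and 124 to 269.5, with a median of 206, on WD, and overlapped through 1 WD library (log2 0.58 ± 0.14, adjusted p = 0.0053). The NADPH-producing dehydrogenases were not called. Pgd read 49.5, 48.9 and 49.8 CPM on chow and 39.7 to 103 on WD, and G6pdx read 7.73, 5.65 and 8.64 CPM on chow and 5.13 to 9.70 on WD. The log2 estimates were 0.47 ± 0.19 for Pgd (adjusted p = 0.082) and 0.16 ± 0.23 for G6pdx (adjusted p = 0.66). The estimate for the lactonase gene Pgls was 0.13 ± 0.08. Rpia, a ribose isomerase gene at 2.60 to 3.76 CPM on chow, was separate between the diets and yet not called (log2 0.43 ± 0.23, adjusted p = 0.19).

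Fatty acid synthesis had 4 of 10 genes higher and 1 lower. Fasn, at chr11:120805940-120824178, read 1282, 949 and 548 CPM on chow and 1022 to 4166, with a median of 2626, on WD. A single WD library, number 8, lay within the chow range, and the log2 fold change was 1.35 ± 0.34 (2.55-fold, adjusted p = 0.0057). Elovl6, which elongates palmitate, read 88.2, 93.2 and 56.9 CPM on chow and 128 to 408, with a median of 272, on WD. The groups were separate (log2 1.57 ± 0.27, 2.97-fold, adjusted p = 0.00021). Acaca, the gene for the acetyl-CoA carboxylase of the cytosol, read 155, 142 and 120 CPM on chow and 149 to 427, with a median of 287, on WD. It overlapped through library 8 and was called at 0.93 ± 0.20 (adjusted p = 0.0016).

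Malic enzyme, Me1 (chr9:86581371-86695953), read 170, 142 and 129 CPM on chow and 84.2 to 474, with a median of 352, on WD. Library 8 fell below all 3 chow libraries while the other 5 lay above them, and the call (log2 1.03 ± 0.35, adjusted p = 0.036) was lost in 7 of the 9 fits that left out 1 library. Acss2 (chr2:155517948-155585724), the acetyl-CoA synthetase that uses acetate, was the gene that fell most, from 288, 251 and 247 CPM on chow to 51.4 to 152, with a median of 126, on WD. All WD libraries were below the chow libraries (log2 -1.19 ± 0.27, 2.29-fold lower, adjusted p = 0.0026). Acss2 makes the same product as Acly, the citrate lyase gene, whose levels were alike on both diets at 427 to 566 CPM on chow and 247.5 to 572 on WD (log2 -0.03 ± 0.26, adjusted p = 0.95).

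The remaining genes of the step were not called. The citrate carrier gene Slc25a1 read 258 to 270.2 CPM on chow and 211 to 302 on WD (log2 0.04 ± 0.09). Acacb, the carboxylase of the mitochondrial surface, read 142 to 172 CPM on chow and 36.4 to 277 on WD (log2 0.25 ± 0.37). For Acacb, WD library 8 was below the chow range, while the other WD libraries, at 216 to 277 CPM, lay above it. Thrsp, which has a large spread, read 331, 209 and 83.8 CPM on chow and 213 to 1483 CPM on WD, and its estimate of 1.39 ± 0.52 missed the threshold at an adjusted p of 0.056. Mid1ip1, an activator of acetyl-CoA carboxylase related to Thrsp, gave 0.11 ± 0.22.

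The regulators differed from each other. Srebf1, at chr11:60199089-60222581, read 283, 274 and 194 CPM on chow and 583 to 1277, with a median of 822, on WD, without overlap. Its log2 fold change was 1.63 ± 0.19 (3.10-fold, adjusted p = 1.8e-06). Mlxipl, at chr5:135106891-135138382, read 241, 224 and 237 CPM on chow and 206 to 358, with a median of 279, on WD, and was not called (log2 0.18 ± 0.13, adjusted p = 0.34). Counts over the whole gene do not tell the isoforms of either regulator apart.

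**Figure D2:**
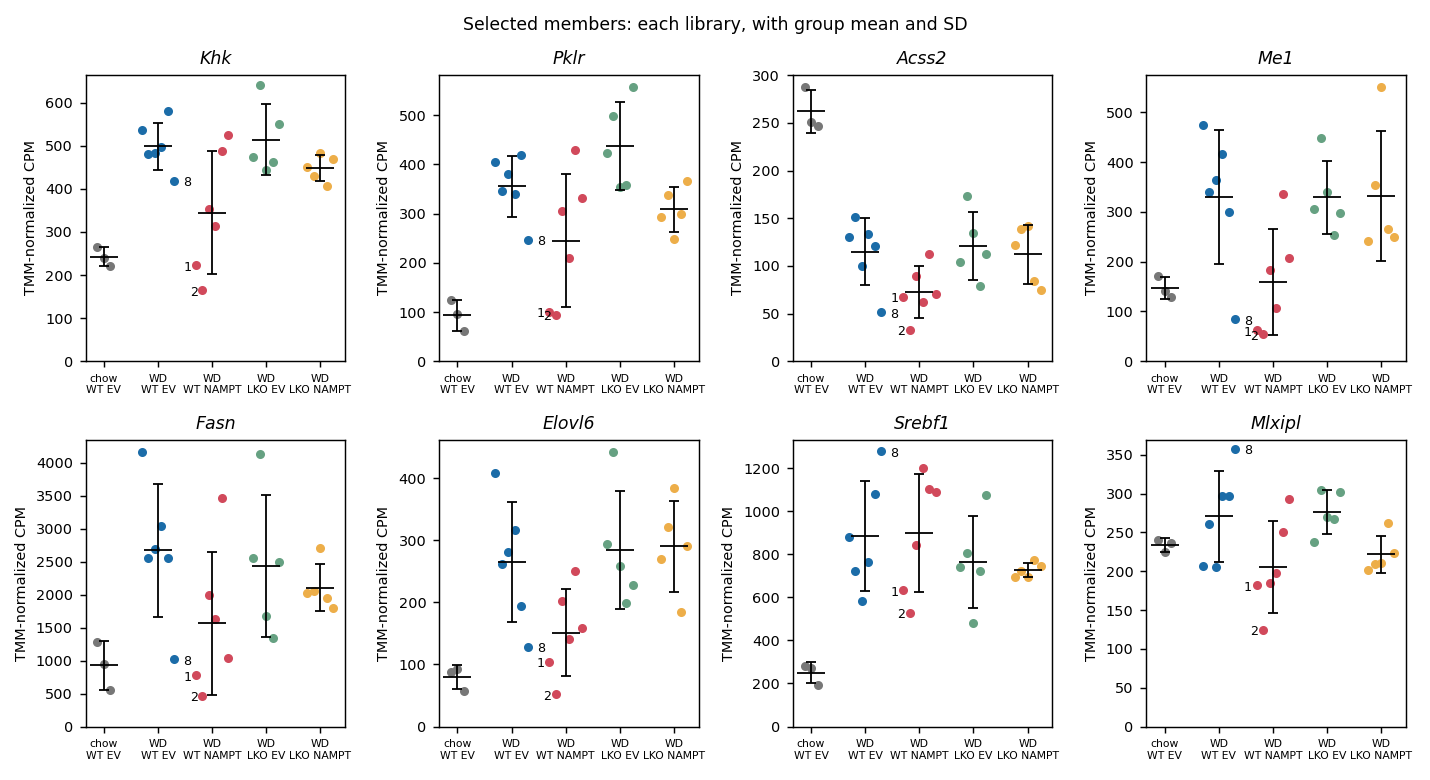
TMM-normalized CPM of 8 of the genes in each library (points), with the mean and SD of each group (bars), on linear axes that start at 0. Numbers name WD WT EV library 8 and WD WT NAMPT libraries 1 and 2. All chow libraries lie below the WD WT EV libraries for Khk, Pklr, Elovl6 and Srebf1 and above them for Acss2, and Mlxipl overlaps between the diets.

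Genes of the same route outside the 33 were read from lists of 91, of which 85 were tested. On WD 24 were higher and 7 lower, beside 10.1% and 12% of all genes. Scd1, the desaturase that acts on newly made saturated fatty acids, ran from 5881 to 14388 CPM on chow and from 25443 to 75705 on WD (log2 2.95 ± 0.21, adjusted p = 8.7e-10). The acyltransferase gene Gpam was higher (0.71 ± 0.24, adjusted p = 0.036) and Pdk4, the kinase that shuts off pyruvate dehydrogenase, lower (-1.29 ± 0.34, adjusted p = 0.0087). Pnpla3 was at 0.134 to 1.03 CPM on chow and 2.45 to 25.7 on WD. Of the SREBP retention genes, Insig1 was lower (-0.92 ± 0.23, adjusted p = 0.0068) and Insig2 higher (0.96 ± 0.23, adjusted p = 0.0037). The ChREBP partner Mlx (-0.09 ± 0.11), the ChREBP target Txnip (0.25 ± 0.14) and the oxysterol receptor Nr1h3 (-0.01 ± 0.08) were not called.

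Clock genes also differed between the diets, with 6 of 13 higher and 4 lower on WD. A score of 10 of them, the mean log2 level of Arntl, Npas2, Clock and Cry1 less that of 6 genes of the opposite phase (Dbp, Nr1d1, Nr1d2, Per2, Per3 and Tef), was between 0.06 and 1.69 in chow libraries and between -3.18 and -0.65 in WD WT EV, so that the score and the diet cannot be told apart by group alone. With the score as a covariate 16 of the 33 genes were called, beside 2356 of all 14065 genes. The calls for Slc2a2 (0.48, adjusted p = 0.18), Pdha1 (0.35, adjusted p = 0.16), Pdhb (0.34, adjusted p = 0.17) and Me1 (1.14, adjusted p = 0.15) were lost. Those for Pgd (0.93, adjusted p = 0.026) and Rpia (0.95, adjusted p = 0.038) were gained. Macrophage markers moved with the diet as well, since the summed level of 6 of them was 188 to 233 CPM on chow and 247 to 358 CPM on WD, with 2 of the 6 called higher. Of the other marker lists, neutrophil and monocyte and stellate markers had 1 called higher each, endothelial markers 1 lower, hepatocyte markers 3 of 7 lower, and T and B cell, cholangiocyte and adipocyte markers 0 called by limma. The part of the clock genes and of other cells in the diet values was not tested beyond that covariate. The calls also rest on few chow mice, since 11 of the 33 genes were called without chow library 1 and 9 without chow library 2. Over all 14065 genes the calls went from 3101 to 952 and 843 in those fits. Pklr, Elovl6, Khk, Tkfc, Gapdh, Srebf1, Acaca and Fasn were called in all 9 other settings and all 9 fits that left out 1 library.

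NAMPT against EV in WT mice on WD gave fewer calls, all of them lower. This comparison shares the 6 WD WT EV libraries with the diet comparison. In WD WT NAMPT livers 4 of the 33 genes (12.1%) were called, against a background of 13.4% of all genes, so the share was near the background. The 4 genes were lower (background 5.77%) and 0 were higher (background 7.67%). In 0 of the 33 genes were the groups without overlap, against 0.96% of all genes. The median log2 fold change was -0.22, with 27 of 33 estimates below 0, beside a median of 0.0041 for all genes.

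Khk, the fructose kinase, ran from 165 to 526 CPM with a median of 333 in WD WT NAMPT, against 419 to 580 with a median of 490 in WD WT EV. In 4 of the 6 NAMPT libraries it was below every EV library, and the log2 fold change was -0.56 ± 0.15 (1.48-fold lower, adjusted p = 0.018). Me1 ran from 53.9 to 336 CPM with a median of 146, against 84.2 to 474 with a median of 352. Its groups overlapped broadly, and the fold was the largest of the called genes (log2 -1.09 ± 0.34, 2.13-fold lower, adjusted p = 0.034). Mlxipl ran from 125 to 293 CPM with a median of 191, against 206 to 358 with a median of 279. Overlap was present here too, at a log2 fold change of -0.40 ± 0.13 (adjusted p = 0.04). Pgk1 ran from 162 to 225 CPM with a median of 187, against 199 to 235 with a median of 223 (log2 -0.22 ± 0.07, adjusted p = 0.045).

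The other genes were not called in this comparison. In fatty acid synthesis 9 of 10 estimates were below 0, and Fasn ran from 471 to 3469 CPM with a median of 1337 against 1022 to 4166 with a median of 2626 (log2 -0.62 ± 0.34, adjusted p = 0.21). Elovl6 gave -0.69 ± 0.27 (adjusted p = 0.081), Acss2 -0.64 ± 0.25 (adjusted p = 0.08) and Acly -0.46 ± 0.25 (adjusted p = 0.22). Pklr ran from 94.3 to 429 CPM with a median of 257 (log2 -0.55 ± 0.24, adjusted p = 0.11). Estimates above 0 were found for Srebf1 (0.21 ± 0.20), G6pdx (0.42 ± 0.20), Rpia (0.42 ± 0.19), Pfkl, Tpi1 and Mid1ip1. None of these differences passed the test.

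**Figure D3:**
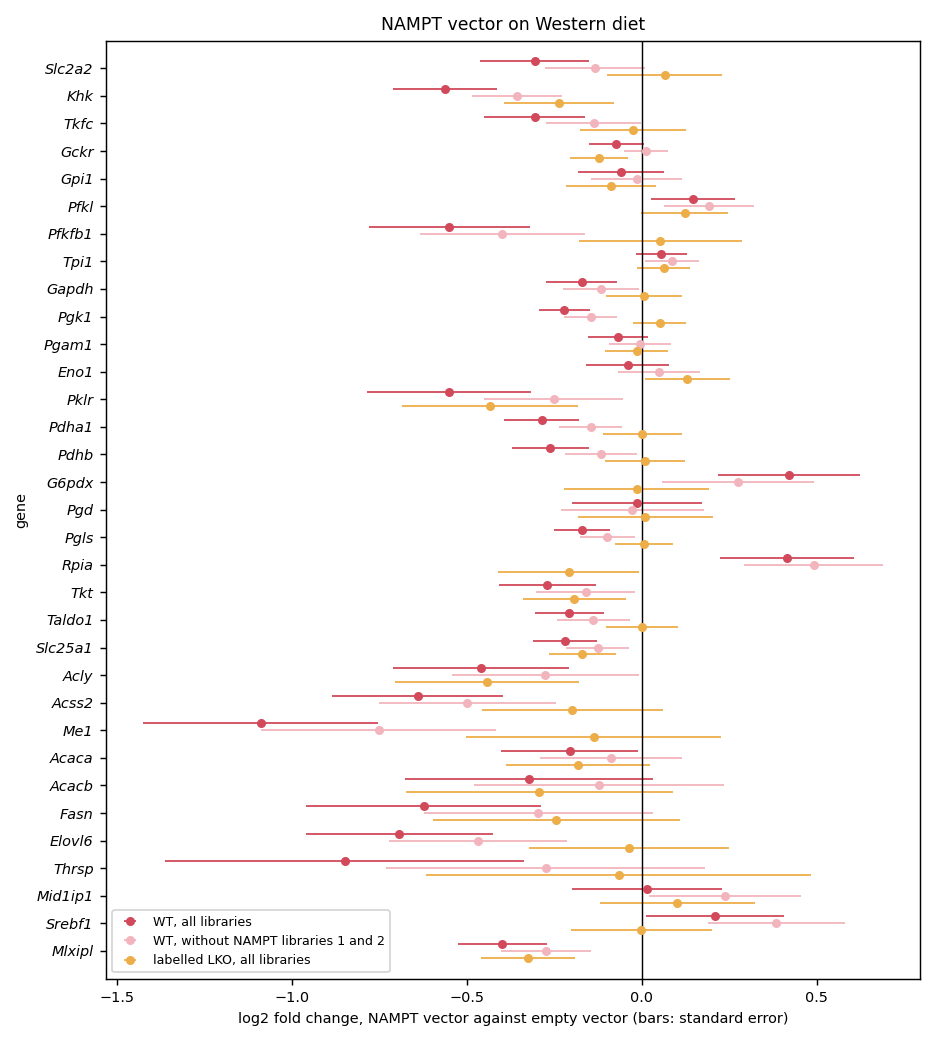
Log2 fold change of NAMPT against EV on WD for each gene, with bars for the SE, in WT with all libraries, in WT without NAMPT libraries 1 and 2, and in mice labelled LKO, as the legend gives by color. Most points for WT with all libraries lie left of 0, with Me1 farthest at -1.09, and those without libraries 1 and 2 lie nearer to 0 for Khk, Me1, Pgk1 and Mlxipl.

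The WD WT NAMPT libraries 1 and 2, singled out because they were low in these genes, were the lowest pair of the 6 in 24 of the 33 genes, and the same held for 15.8% of all genes tested. They were below all 6 WD WT EV libraries in 17 of the 33, beside 16.2% of all genes, and the 17 included all 4 genes of sugar entry, both pyruvate dehydrogenase genes and 5 of 10 in fatty acid synthesis but 1 of 6 in the pentose phosphate pathway. For Khk they read 222 and 165 CPM, for Pklr 100.3 and 94.3, for Me1 62.6 and 53.9, and for Fasn 778 and 471. Library 5 of the same group was the highest in 20 of the 33 genes and read 3469 CPM for Fasn. Leaving out libraries chosen as low makes such differences smaller by construction. Without libraries 1 and 2, 0 of the 33 genes were called by limma, and the count over all genes went from 1890 to 33. In that limma fit 4 of the 33 had an unadjusted p under 0.05, beside 2867 of all 14065 genes. Khk then stood at -0.36 (adjusted p = 0.13), Me1 at -0.75 (adjusted p = 0.21), Mlxipl at -0.27 (adjusted p = 0.24) and Pgk1 at -0.15 (adjusted p = 0.28). A fit that left out a single library gave from 0 to 11 called genes of the 33. There were 0 without WD WT EV library 2 or WD WT NAMPT library 3. There was 1 without WD WT EV library 6 or WD WT NAMPT library 1, 2 or 4. Without WD WT EV library 1 or 7 there were 2, without WD WT EV library 8 there were 9, and without WD WT NAMPT library 5 there were 11. Over all 14065 genes these fits called from 132, without WD WT NAMPT library 3, to 2846, without WD WT NAMPT library 6. They called 291 without WD WT EV library 2, 1654 without WD WT EV library 8 and 2795 without WD WT NAMPT library 5.

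**Figure D4:**
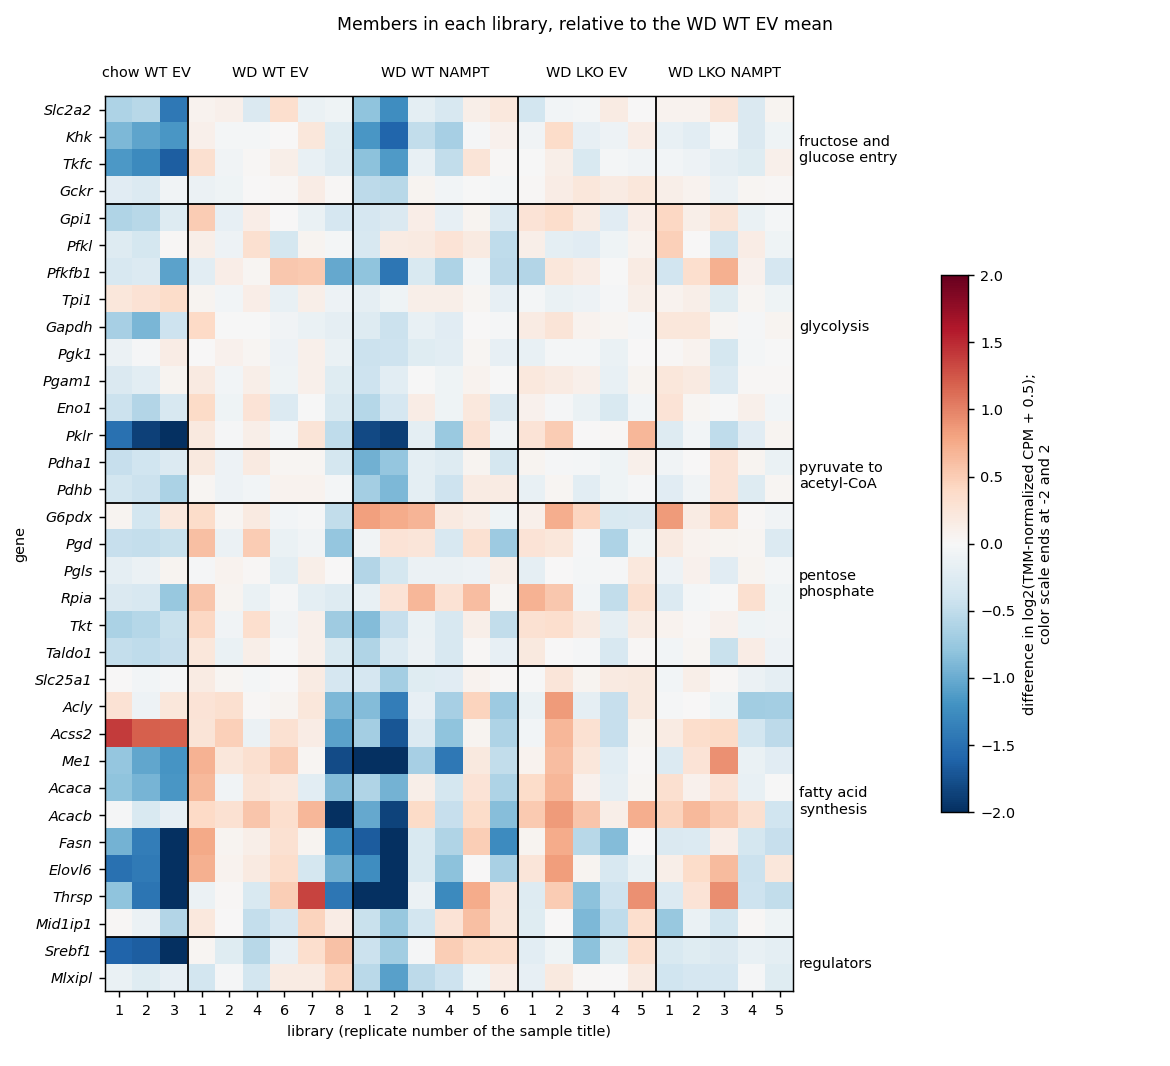
Difference of each gene in each of the 25 libraries from the WD WT EV mean, on the log2(CPM + 0.5) scale, with red for higher and blue for lower and the color scale ended at -2 and 2. Chow libraries are blue for most genes and red for Acss2 and Tpi1. WD WT NAMPT libraries 1 and 2 and WD WT EV library 8 are blue across fatty acid synthesis, and library 8 is red for Srebf1 and Mlxipl.

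WD WT EV library 8 was the lowest of its group in 24 of the 33 genes, among them 9 of 10 in fatty acid synthesis and 5 of 6 in the pentose phosphate pathway, with 1022 CPM for Fasn, 84.2 for Me1 and 36.4 for Acacb. The regulators went the other way in that mouse, since Srebf1 at 1277 CPM and Mlxipl at 358 CPM were the highest of the group. In fructose and glucose entry no WD WT EV library was low, since the mean log2 difference over that step was at least -0.14 in that group and reached -1.13 in WD WT NAMPT.

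The clock-gene score was between -3.61 and -1.88 in WD WT NAMPT, with a median of -3.13, and 3 of 13 clock genes were called lower. In WD WT EV (median -1.39) it was -0.65, -0.69 and -0.72 in libraries 1, 2 and 4. Libraries 6, 7 and 8 of that group read -2.23, -3.18 and -2.06. The score ran from -3.15 to -0.78 in WD LKO EV and from -3.58 to -1.37 in WD LKO NAMPT. With the score as a covariate 8 of the 33 genes were called, 7 lower and 1 higher, beside 2650 of all 14065 genes. The call for Me1 was lost (-1.07, adjusted p = 0.06), that for Khk was kept (-0.63, adjusted p = 0.017), and Rpia was called higher (0.65, adjusted p = 0.031).

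Markers of other cells moved in the same comparison. The summed level of 6 Kupffer cell and macrophage markers was 247 to 358 CPM in WD WT EV and 629, 573, 641, 449.5, 376 and 231 CPM in WD WT NAMPT libraries 1 to 6, with 3 of the 6 markers called higher. That of 6 neutrophil and monocyte markers was 4.46 to 16.03 CPM in WD WT EV and 4.69 to 44.9 in WD WT NAMPT, with 2 of 6 called higher. Of the T and B cell markers 1 of 4 tested was higher, at sums of 2.63 to 5.27 against 4.36 to 6.72 CPM, and of the stellate markers 2 of 5, at 249.6 to 371 against 262 to 460.4 CPM. Endothelial sums were 256 to 294 and 249 to 273 CPM (1 of 5 higher and 1 lower), cholangiocyte sums 23.4 to 82.2 and 25.02 to 61.6, and red cell sums 493 to 1206 and 363 to 1500. Sums of 4 skeletal muscle markers were at most 0.419 CPM in any library. The adipocyte list (Adipoq, Plin1, Lep, Cfd and Car3) had 2 of 5 genes tested, 1 of them called lower, so its sums rest on few genes. Those sums ran from 1950 to 4287 CPM in WD WT EV and from 560 to 3695 in WD WT NAMPT. Lep was at 0 in all chow and WD LKO EV libraries, and Adipoq in all WD LKO EV libraries. Hepatocyte sums were 57683 to 74157 and 47380 to 68175 CPM (1 of 7 lower). The part of these cells in the 33 genes was not tested, and in bulk RNA fewer cells of a type and less RNA per cell cannot be told apart.

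Over the 10 fatty acid synthesis genes, the mean log2 difference from the WD WT EV average was -1.21 and -1.83 in WD WT NAMPT libraries 1 and 2 and -1.07 in WD WT EV library 8. It ran from -1.83 to 0.33 in WD WT NAMPT, from -1.07 to 0.40 in WD WT EV, from -0.31 to 0.60 in WD LKO EV and from -0.29 to 0.34 in WD LKO NAMPT. The chow libraries, at -0.88 to -0.31, lay within the range of both WD WT groups.

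**Figure D5:**
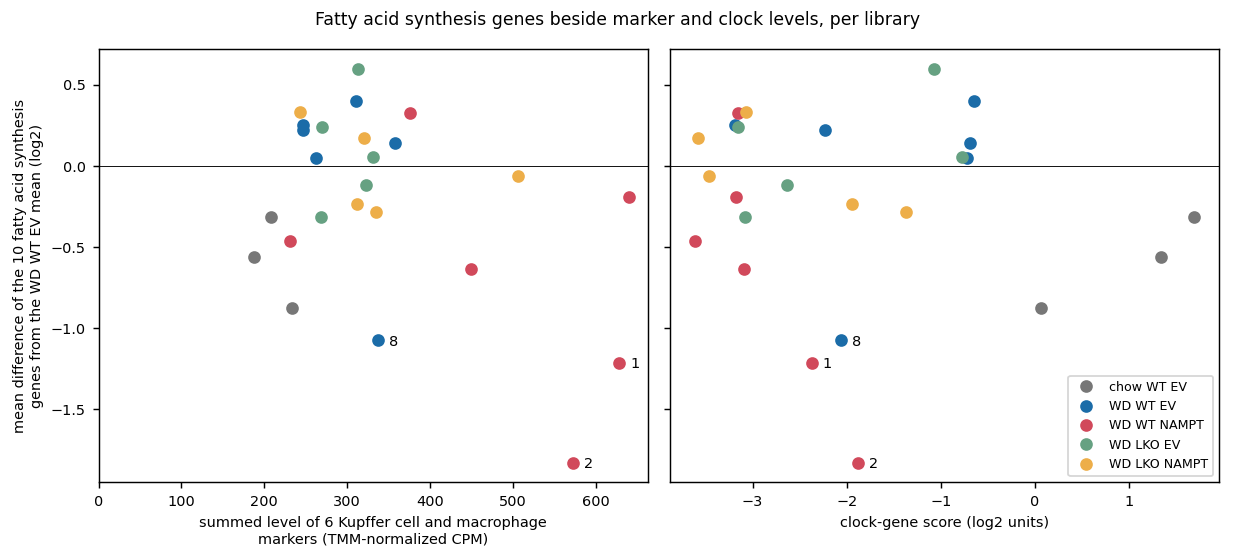
Mean log2 difference of the 10 fatty acid synthesis genes from the WD WT EV mean in each library, against the summed level of 6 Kupffer cell and macrophage markers in CPM (left) and the clock-gene score (right). WD WT NAMPT libraries 1 and 2 sit lowest on the vertical axis, at macrophage sums of 629 and 573 CPM. WD WT EV library 8 comes next on that axis, at a sum of 337 CPM. WD WT NAMPT library 3 has the highest macrophage sum, 641 CPM, and a mean difference of -0.19.

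A list of 11 fasting response genes, which includes gluconeogenic and ketogenic enzymes, gave sums of 3056 and 2907 CPM in WD WT NAMPT libraries 1 and 2, below the 4817 to 5849 CPM of WD WT EV, while the other 4 NAMPT libraries ran from 4469 to 6617. In this comparison 1 of the 11 was called lower. Of the 85 further genes of the route, 10 were higher and 12 lower with NAMPT in WT. Over all genes 7.67% were higher and 5.77% lower. The pyruvate handling list had 6 of 17 lower and 1 higher (Pdk3), and the lower included the pyruvate carrier genes Mpc1 and Mpc2. Hk1, Hk2 and Hk3, hexokinases that are low in hepatocytes, and Pkm, the pyruvate kinase of most other cells, were among the higher, and these 7 genes were named after their values were seen. Insig2 fell by 0.76 on the log2 scale (SE 0.22, adjusted p = 0.027), and Scd1 (-0.39, adjusted p = 0.25) and Gpam (-0.67, adjusted p = 0.057) were not called.

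In the libraries labelled LKO, NAMPT was followed by no call among the 33 genes. By limma 0 of 33 passed the adjusted threshold (background 0.00711%) and 1 had an unadjusted p under 0.05 (background 9.63%), and 0 were called by the edgeR quasi-likelihood test or by DESeq2. No gene was separate between the groups (background 1.15%), and the median log2 fold change was -0.03. The gene with the unadjusted p under 0.05 was Mlxipl. It read 237, 305, 270.5, 268 and 302 CPM in WD LKO EV and 202, 209.6, 211, 262 and 224 CPM in WD LKO NAMPT. A single NAMPT library exceeded the lowest EV library, and the log2 fold change was -0.33 ± 0.13 (adjusted p = 0.43). Me1 read 307, 449, 340, 253 and 298 CPM with EV and 241, 353, 551, 266 and 249 with NAMPT, which overlapped broadly (log2 -0.14 ± 0.36). Pklr gave -0.43 ± 0.25 (adjusted p = 0.61), Khk -0.24 ± 0.16 (adjusted p = 0.66) and Fasn -0.24 ± 0.35 (adjusted p = 0.86).

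The difference between the NAMPT effects in LKO and WT was tested directly as an interaction. None of the 33 genes was called by limma (background 0.00711%), 2 had an unadjusted p under 0.05 (background 21.2%), and 0 were called by the edgeR quasi-likelihood test or DESeq2. The largest estimate was that of Me1 at 0.95 ± 0.50 (adjusted p = 0.27), followed by Thrsp at 0.78 ± 0.75 (adjusted p = 0.56). These estimates rest in part on WD WT NAMPT libraries 1 and 2, without which Me1 stood at 0.60 and Thrsp at 0.19. The largest in size was then Rpia at -0.71 (adjusted p = 0.25). In that fit 0 of the 33 were called and 1 had an unadjusted p under 0.05, beside 1 and 2210 of all 14065 genes. With all libraries, the genes with an unadjusted p under 0.05 were Pgk1 (0.27 ± 0.11, adjusted p = 0.15) and Rpia (-0.63 ± 0.28, adjusted p = 0.2). For Mlxipl the estimate was 0.07 ± 0.19, with the effects in WT and LKO at -0.40 and -0.33, and it was -0.06 without those libraries.

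Averaged over both genotypes, NAMPT against EV gave 1 call of 33 (background 1.79%), which was lower (background 0.754%). It was Mlxipl, the ChREBP gene, at -0.36 ± 0.09 (1.29-fold lower, adjusted p = 0.045). Khk followed at -0.40 ± 0.11 (adjusted p = 0.052), then Slc25a1 at -0.20 ± 0.07 (adjusted p = 0.096) and Pklr at -0.49 ± 0.17 (adjusted p = 0.11). Without WD WT NAMPT libraries 1 and 2, 0 of the 33 genes and 1 of all genes were called. No call was made without WD WT EV library 2, 6, 7 or 8, WD WT NAMPT library 1, 2 or 3, WD LKO EV library 2, 4 or 5, or WD LKO NAMPT library 1, 2, 3 or 5. There were 2 without WD WT EV library 4, WD WT NAMPT library 6 or WD LKO EV library 1 or 3. Without WD WT NAMPT library 5 there were 4. Over all 14065 genes those fits called 466, 919, 422, 481 and 989, in the same order. The fits with no call among the 33 called from 0 to 297 of all genes.

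The genotype label alone gave little. WD LKO EV against WD WT EV had 0 of 33 called by limma (background 0.00711%), 0 by the edgeR quasi-likelihood test and DESeq2, and 1 at an unadjusted p under 0.05 (background 6.33%), namely Gckr at 0.18 ± 0.08 (adjusted p = 0.72). Estimates ran from -0.27 for Mid1ip1 to 0.52 ± 0.35 for Acacb. WD LKO NAMPT against WD WT NAMPT also had 0 called (background 7.96%), by all 3 tools, with 8 at an unadjusted p under 0.05 (background 28.6%) and a median of 0.20. The nearest to the threshold were Me1 at 1.09 ± 0.36 (adjusted p = 0.058) and Elovl6 at 0.82 ± 0.29 (adjusted p = 0.068). Without WD WT NAMPT libraries 1 and 2 there were 0 called and 4 at an unadjusted p under 0.05, beside 22 and 2878 of all 14065 genes. The median was then 0.085, with Me1 at 0.74 (adjusted p = 0.24) and Elovl6 at 0.59 (adjusted p = 0.23). Leaving out WD WT NAMPT library 5 gave 5 calls in that comparison. WD WT NAMPT library 6 or WD LKO NAMPT library 4 gave 2 and WD LKO NAMPT library 1 gave 1. Over all 14065 genes those fits called 1956, 2287, 1817 and 2258, in the same order. Outside the 33, 12 of the 85 further genes were higher and 1 lower, beside 588 higher and 532 lower of all 14065 genes. Without WD WT NAMPT libraries 1 and 2 the calls over all genes in that comparison went from 1120 to 22, and the 85 genes were not counted in that fit. Averaged over both vectors, LKO against WT had 0 of 33 called by the 3 tools (background 0.242%). It had 9 at an unadjusted p under 0.05 (background 15.5%). Without WD WT NAMPT libraries 1 and 2 it had 0 called and 5 at an unadjusted p under 0.05, beside 9 and 1621 of all 14065 genes. The comparisons of the 4 WD groups share libraries with one another, so their counts are not independent.

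Across the 4 WD groups the order of levels was hard to set for most genes. Srebf1 averaged 884 ± 254.5 CPM (SD, n = 6) in WT EV, 899 ± 276 (SD, n = 6) in WT NAMPT, 765 ± 212 (SD, n = 5) in LKO EV and 725 ± 33.2 (SD, n = 5) in LKO NAMPT, with overlap among all 4. Khk averaged 499 ± 54.6, 344 ± 143, 515 ± 81.8 and 448 ± 30.2 CPM in the same order, and the WT NAMPT mean was the lowest with the widest spread. Fasn averaged 2673 ± 1012, 1564 ± 1087, 2442 ± 1077 and 2106 ± 354 CPM, and its groups overlapped throughout. Acss2 averaged 115 ± 35.3, 72.5 ± 26.9, 121 ± 35.4 and 112 ± 31.0 CPM, all below the chow mean of 262 ± 22.6 CPM (SD, n = 3).

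Reads of some genes may be shared with near copies. Of the 50-base words in the transcripts of Pgk1, 53.9% also occur in other genes, pseudogenes among them, and the share was 36.2% for Pgam1, 30.4% for Acaca, 28.3% for Me1, 26% for Eno1, 25.1% for Gapdh and 20.5% for Pklr, whose exons overlap those of Hcn3 on the other strand. It was 0% for 8 of the genes, among them Khk, Fasn, Acacb and Acly, and above 10% for 14. In 12 genes some exonic bases overlap another gene. Counts kept only uniquely aligned reads, so that reads from shared words can be missing from a gene or, where copies differ, be assigned to the copy, and values of genes with high shares are uncertain. For the genes that overlap another gene on the opposite strand, it is not known whether reads of the pair were told apart. The strand setting of the count is not given in the sources used here. Overlaps on the same strand, as of Pgls with Fam129c (776 bases), are not separated by strand.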

How the data were processed

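Liver polyadenylated RNA of 25 mice was sequenced as single reads. Reads were aligned to GRCm38 with STAR 2.5.1a and counted per gene with featureCounts 1.4.6-p5, as the submitters' processing notes name them (the study's methods name other versions). The deposited files hold raw counts of uniquely aligned reads per gene, and CPM and RPKM that the authors computed from those counts. Recomputed CPM and RPKM deviated by at most 5.9e-14 (relative). Counts were used for the fits and the CPM values. The deposited RPKM, which carry no TMM factor, were used for the levels per length.

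Groups came from sample titles. The general treatment text names SIRT1 as the vector's insert while the titles name NAMPT, and the titles were followed. Genes with more than 1 CPM in at least 2 libraries were kept and 4 ribosomal RNA genes left out, leaving 14065. Counts were fitted with voomWithQualityWeights of limma 3.58.1 (R 4.3.3) with TMM factors of edgeR 4.0.16, 5 group means and all 25 libraries, and p-values were adjusted by Benjamini-Hochberg over all genes. The model is that of the study's RNA-seq methods text, whose removal of ribosomal genes was read as removal of ribosomal RNA genes. Its figure legends name the exact test of edgeR instead. Alternatives were the edgeR quasi-likelihood test, DESeq2 1.42.0, other scalings, no filter, no weights, the compared groups alone, a clock-gene covariate, the replicate number as a block and fits without single libraries. The joint removal of WD WT NAMPT libraries 1 and 2 was chosen after seeing the data. The fit was tested on simulated data. All 33 genes are named, and others of the route were named by a fixed list, of which some are not reported here. The genes, lists and markers were chosen with earlier results of these data known.

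Replicate libraries differed by more than sampling noise (smallest chi-square per degree of freedom 15.9 over 53 pairs). p-values measure the spread between mice of 1 experiment, at a depth between 20166175 and 32937326 counts. Promoter sequence is from RefSeq on GRCm38.p6, matched for all 33 genes.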

Additional observations from a re-analysis of the deposited data

Results flagged for a closer look

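In 6 of 132 combinations of gene and WD group (4.55%) a single library lay far from the others of its group by Dixon's gap test, which chance gives in about 1 of 20 groups. Gapdh in WD WT EV library 1 was at 2151 CPM while the others ran from 1427 to 1616. The same library had the highest Rpia, at 7.17 CPM against 3.88 to 4.91. WD WT EV library 8 had the lowest Acly, at 247.5 CPM against 466 to 572, and the lowest Acacb, at 36.4 CPM against 216 to 277. WD LKO NAMPT library 3 had the lowest Pgk1, at 171 CPM against 213.5 to 230.3, and the highest Fasn, at 2713 CPM against 1794 to 2053.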

How the results depend on the processing

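For Western diet against chow, 18 of the 33 genes were called, and 11 with the edgeR quasi-likelihood test or with no quality weights. Over all 14065 genes the calls were 3101, 1322 and 1201, in the same order. For WT NAMPT against WT EV, 4 were called. There were 0 with the edgeR quasi-likelihood test, without quality weights or with only the 2 groups compared. There was 1 without the filter, and 2 with DESeq2, upper-quartile factors or library size only (then 1 higher and 1 lower). The clock-gene score gave 8 (7 lower and 1 higher), and 0 were called without NAMPT libraries 1 and 2. Over all genes the calls were 1890, then 428, 192, 804, 524, 1194, 1808, 2281, 2650 and 33, in the same order. The fit without the filter tested 29119 genes and that of the 2 groups 13743. Scaling by library size only moved the median of all genes in that comparison to 0.16. For NAMPT against EV averaged over genotypes, 1 was called. There were 0 with the edgeR quasi-likelihood test, DESeq2, no quality weights, no filter or without libraries 1 and 2. Library size only gave 2 and the clock-gene score 4. Over all genes the calls were 252, then 0, 424, 0, 5, 1, 529 and 1289, in the same order. The causes were not tested. Leaving out 1 library gave 9 to 21 calls among the 33 for diet and 0 to 11 for WT NAMPT. It gave 0 to 5 for LKO NAMPT against WT NAMPT, 0 to 4 for NAMPT averaged, and 0 in the other 4 comparisons. Over all genes the first 4 of these ranges were 843 to 3171, 132 to 2846, 0 to 2287 and 0 to 989. For the 23 called values of single genes, 321 alternative values kept direction and call, 122 kept the direction and lost the call, and 0 reversed. Values not called can change sign, as for Mlxipl with diet (0.18, and -0.09 with the clock-gene score).

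Replicate numbers name different mice, and the deviations of same-numbered libraries were correlated with mixed signs (from -0.377 to 0.419). A fit that took the replicate number as a block called 19 genes for diet, 5 for WT NAMPT and 0 in the other 6 comparisons. These were partly different genes. Over all 14065 genes the block fit called 3842 for diet and 884 for WT NAMPT, beside 3101 and 1890 without the block. In the other 6 comparisons it called from 0 to 412 of all genes. For WT NAMPT the block kept Me1 (-1.46, adjusted p = 0.012), lost Khk (adjusted p = 0.08), Pgk1 (adjusted p = 0.08) and Mlxipl (adjusted p = 0.47), and added Pdha1, Tkt, Acss2 and Elovl6. For diet it lost Tpi1 and added Pgam1 and Pgd.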
